A study of Cricetulus griseus with 16 samples.

Results

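The mitochondrial chaperones and proteases described here were taken from the deposited count table by name, ignoring case, from a list of 10 genes: Hspd1, Hspe1, Hspa9, Trap1, Grpel1, Grpel2, Clpb, Clpp, Clpx and Lonp1. The table lists 20824 genes, and 7 of the 10 were found in it by name. Hspe1, Hspa9 and Grpel2 were not listed by name and were not analysed here. The 7 that were found are Hspd1 (ENSCGRG00001021126, spelled HSPD1 in the table), Trap1 (ENSCGRG00001022922), Grpel1 (ENSCGRG00001009780), Clpb (ENSCGRG00001003280), Clpp (ENSCGRG00001019808), Clpx (ENSCGRG00001020872) and Lonp1 (ENSCGRG00001021835).

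RNA was sequenced from CHO cells (ATCC CCL-61), an established Chinese hamster ovary line, to follow how the transcriptome responds to mild and moderate heat. The 16 libraries are 4 cultures each, labelled A to D, of cells kept at 37 °C, heated at 40 °C for 1 h, heated at 40 °C for 6 h, or heated at 42.5 °C for 1 h. All cultures were of the same untransfected line, were plated the day before the experiment and received no other agent. The labels give no duration for the 37 °C cells, so temperature and a possible difference in time of harvest cannot be told apart. The labels call the cultures of a group biological repeats, and all groups rest on this 1 cell line.

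Most proteins of mitochondria are made in the cytosol and cross the mitochondrial membranes unfolded. In the matrix, mitochondrial HSP70 pulls them in, the HSP60 chaperonin (Hspd1) with its lid HSP10 (Hspe1) folds them, and the ATP-dependent proteases LONP1 and CLPXP degrade those that stay misfolded. A rise of these chaperones and proteases together is the classical sign of the mitochondrial unfolded protein response, while cytosolic heat shock proteins are controlled by the heat shock factor HSF1, and Hspd1 is known as a target of HSF1 as well.

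Total counts ranged from 10504192 to 14668365 per library, so that 3 counts, taken as the detection floor, equal 0.205 to 0.286 CPM. For this floor and for the marker genes below, CPM are counts relative to the library total. All other CPM are also TMM-scaled. All 7 members were far above this floor and passed the filter on low counts in all 6 comparisons, with between 494 counts (the lowest value of Clpx) and 40695 counts (the highest of Hspd1) in a library. The mesenchymal genes Vim and Sparc were at 1813 to 2605 CPM and 242 to 314 CPM, whereas Ptprc, Epcam, Pecam1 and Alb, markers of leukocytes, epithelium, endothelium and liver, had at most 4 counts in any library. Of the other markers checked, epithelial Cdh1 had 20 to 48 counts (1.70 to 4.23 CPM) and mesenchymal Col4a1 had 18 to 42 counts, low but above the floor in every library. Of the 4 control cultures, replicate D was not used, and results that change with it are given both ways. In that library, 6 of the 7 members were above all other controls, from 1.03-fold (Clpx) to 1.31-fold (Grpel1) the mean of A, B and C, and Lonp1, at 1.02-fold, was the exception. Means at 37 °C are therefore over n = 3 libraries and those of heated cells over n = 4.

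Hspd1, the chaperonin of the matrix, had the strongest response among the members. In the control cultures A, B and C, its level was 1584, 1585 and 1752 CPM, and in the left-out culture D it was 1887 CPM. After 1 h at 40 °C the cultures A to D were at 1770, 1596, 1926 and 1787 CPM, and after 6 h at 40 °C they were at 1808, 2168, 1896 and 1941 CPM. Libraries of the 6 h treatment were all above controls A, B and C, although 1808 CPM in culture A lay below control D. After 1 h at 42.5 °C, Hspd1 reached 2347, 2853, 2263 and 3209 CPM, above every library of the other groups. Thus, the group means ordered as 1640 ± 96.6 CPM at 37 °C (SD, n = 3), 1770 ± 135 CPM after 1 h at 40 °C (SD, n = 4), 1953 ± 154 CPM after 6 h at 40 °C (SD, n = 4) and 2668 ± 445 CPM at 42.5 °C (SD, n = 4). Neighbouring steps of this order did not pass the test up to 6 h at 40 °C, while the last step did, as given below. As every library is a whole culture, more RNA in each cell and more cells carrying it cannot be told apart. Processed copies of Hspd1 exist in mammalian genomes, and the treatment of reads that map to more than 1 place is not given in the sources used here, which leaves its count uncertain to that extent. In the RefSeq annotation of another assembly (CriGri-PICRH-1.0), Hspd1 overlaps a gene not listed by that name in the counts, and Trap1 overlaps Dnase1, which had at most 3 counts in a library.

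**Figure D1:**
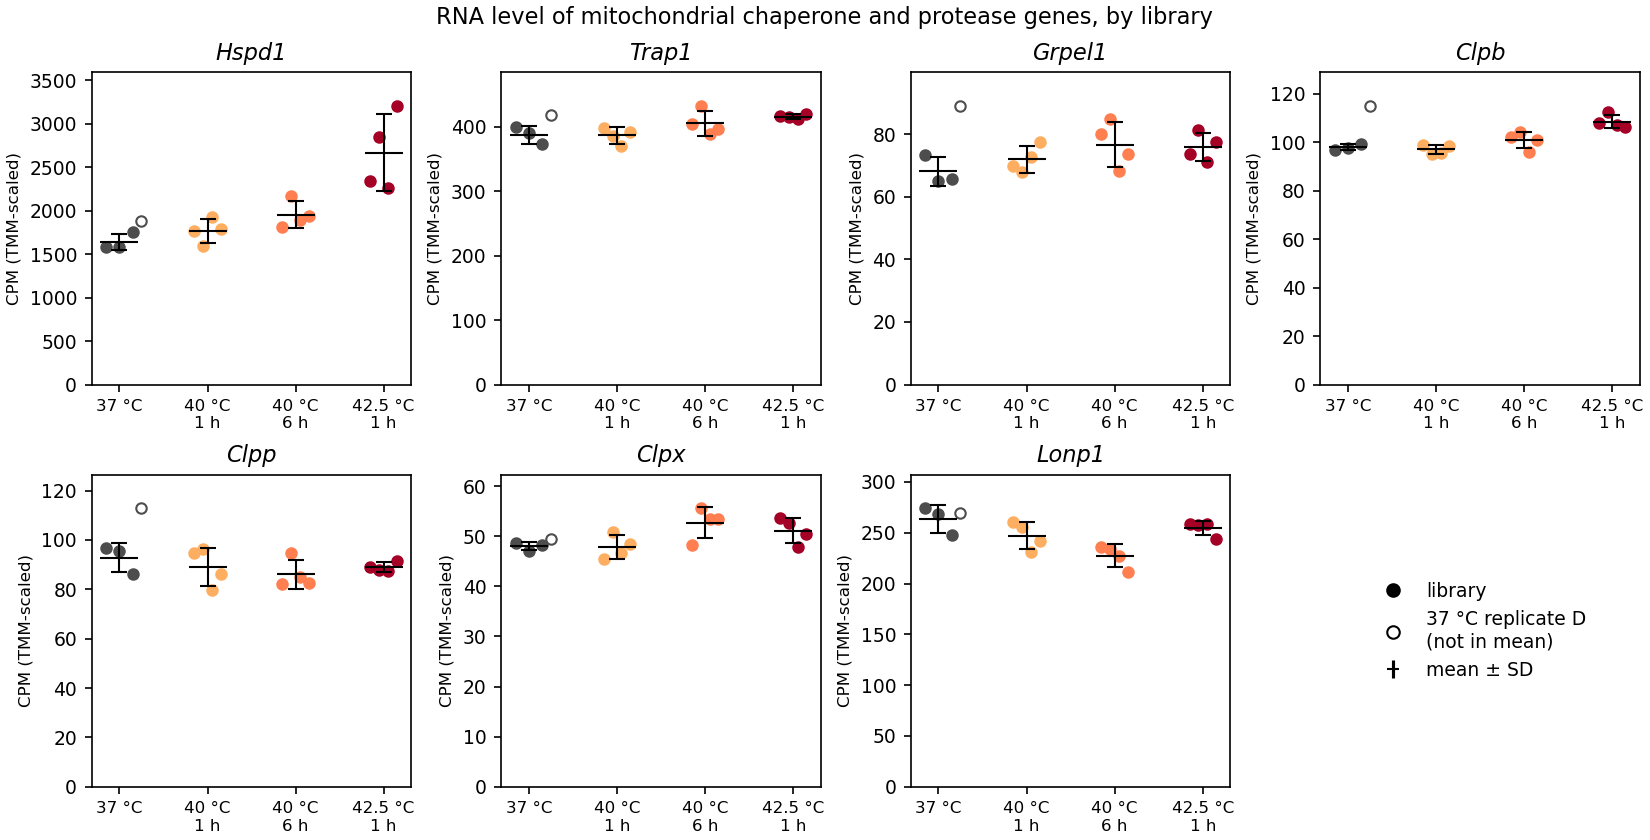
Levels of the 7 members in all 16 libraries, in CPM on a separate linear axis for each gene, with a point per library (open for control D, which is not in the mean), the 4 groups along the horizontal axis and the mean ± SD as bars. Hspd1 at 42.5 °C lies between 2263 and 3209 CPM, above every other library. Ranges of the other members mostly overlap between groups, with exceptions. Clpb at 42.5 °C lies above both 40 °C groups and controls A to C. Trap1 at 42.5 °C lies above 1 h at 40 °C and controls A to C. Lonp1 after 6 h at 40 °C lies below 42.5 °C and all 4 controls.

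Genes were tested with edgeR's quasi-likelihood test over all genes that passed the filter, and adjusted p values are Benjamini-Hochberg values over those genes. A gene with an adjusted p under 0.05 passed the test, and one that in addition changed at least 1.5-fold was called a DEG. The share of all genes at an unadjusted p under 0.05 was not counted. It is at least as high as the share that passed. The 3 comparisons with 37 °C share their control libraries.

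After 1 h at 40 °C, none of the 7 members passed the test and none was a DEG. The count of members with an unadjusted p under 0.05 was also 0, and DESeq2 called 0. Among all genes tested, 1.64% passed, 0.334% were DEGs and 13.4% had groups that did not overlap, whereas every member had overlapping groups. Hspd1 differed by 0.11 on the log2 scale (SE 0.058, 95% interval -0.01 to 0.23, adjusted p = 0.401 by edgeR). The intervals of the other 6 members lay between 0.872-fold and 1.15-fold, hence a 1.5-fold change of any member lay outside its interval. The median log2 fold change of the 7 members was -0.007, against 0.0004 over all genes tested.

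After 6 h at 40 °C, 2 of the 7 members passed the test, in opposite directions, against 29.4% of all genes tested. Hspd1 rose, as 14.7% of all genes did, and Lonp1 fell, as 14.8% did. No member was a DEG by edgeR or by DESeq2, compared with 3.11% of all genes. An unadjusted p under 0.05 was reached by 4 members and by at least 29.4% of all genes. Groups did not overlap for the same 2 members, against 36.2% of all genes tested, so the members were not called more often than genes in general. The rise of Hspd1 was 0.25 on the log2 scale (SE 0.061, 95% interval 0.12 to 0.38, adjusted p = 0.00544 by edgeR), or 1.19-fold. With control D included, it was 0.20 and did not pass (adjusted p = 0.175 by edgeR).

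Lonp1, the ATP-dependent protease that clears oxidised and misfolded proteins from the matrix and also takes part in the upkeep of mitochondrial DNA, was at 274, 268 and 248 CPM in controls A to C and at 269 CPM in control D. After 1 h at 40 °C it was at 261, 256, 231 and 242 CPM, and after 6 h at 236, 234, 227 and 212 CPM. All 4 libraries of the 6 h treatment were below all 4 controls, whereas those of the 1 h treatment overlapped with them. The fall at 6 h was -0.22 on the log2 scale (SE 0.052, 95% interval -0.33 to -0.11, adjusted p = 0.00459 by edgeR), or 0.86-fold, and with control D it was -0.22 as well (adjusted p = 0.0448 by edgeR). At 42.5 °C, Lonp1 was at 259, 258, 259 and 244 CPM, inside the range of the controls in 3 of 4 libraries, and did not pass (-0.06 on the log2 scale, 95% interval -0.15 to 0.03, adjusted p = 0.304 by edgeR). Leaving out any 1 library kept the calls of Hspd1 and Lonp1 at 6 h, with log2 fold changes from 0.20 to 0.30 and from -0.26 to -0.18.

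The differences of the other 5 members at 6 h did not pass the test, and their groups overlapped. Grpel1, the nucleotide exchange factor that resets mitochondrial HSP70, had the largest of these differences, 0.16 on the log2 scale (adjusted p = 0.0862 by edgeR), followed by Clpx with 0.13 (adjusted p = 0.115 by edgeR) and Clpp with -0.11 (adjusted p = 0.179 by edgeR). Trap1 and Clpb differed by 0.06 and 0.04 on the log2 scale. The 95% intervals of Grpel1 (0.02 to 0.31) and Clpx (0.003 to 0.26) did not include 0. Apart from Hspd1, the intervals of the members spanned 0.798-fold to 1.24-fold. The median of the 7 members was 0.06 on the log2 scale, against 0.001 over all genes tested.

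After 1 h at 42.5 °C, 2 of the 7 members passed the test, Hspd1 and Clpb, and both rose. Of all genes tested, 43.1% passed and 20.8% did so with a rise, so this count is close to what genes in general showed. Hspd1 was the only DEG among the members, while 7.51% of all genes were DEGs and 2.83% were DEGs that rose. For Hspd1, Clpb and Trap1 all heated libraries were above controls A to C, against 23.1% of all genes in that direction and 46.0% in either direction. The rise of Hspd1 was 0.70 on the log2 scale (SE 0.091, 95% interval 0.50 to 0.89, adjusted p = 2.3e-05 by edgeR), or 1.62-fold, and 97.9% of the genes tested had a lower fold change. Including control D gave 0.65 (adjusted p = 0.00446 by edgeR), and the heated libraries were above that control too. Without any 1 library the log2 fold change stayed between 0.60 and 0.77, past both thresholds each time.

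Clpb, a disaggregase of the intermembrane space related to the bacterial chaperone ClpB, changed far less. It was at 96.8, 97.6 and 99.2 CPM in controls A to C, at 115 CPM in control D and at 108, 112, 107 and 106 CPM after 1 h at 42.5 °C. The heated libraries were above controls A to C and below control D. On the log2 scale it rose by 0.14 (SE 0.043, 95% interval 0.05 to 0.23, adjusted p = 0.0153 by edgeR), or 1.10-fold. It passed in 5 of the 7 fits that left out 1 library, not without control A or control B (highest adjusted p = 0.0596 by edgeR), and with control D it was 0.09 (adjusted p = 0.337 by edgeR).

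Trap1, the HSP90 of mitochondria, missed the threshold. It was at 400, 390 and 372 CPM in controls A to C, at 418 CPM in control D and at 416, 415, 411 and 420 CPM after 1 h at 42.5 °C. The heated libraries lay close together, at 415 ± 3.39 CPM (SD, n = 4), and above controls A to C but not above control D in 3 of 4 cases. The difference was 0.09 on the log2 scale (SE 0.037, 95% interval 0.02 to 0.17, adjusted p = 0.0501 by edgeR). Grpel1, at 68.1 ± 4.64 CPM in controls (SD, n = 3) and 75.8 ± 4.51 CPM at 42.5 °C (SD, n = 4), likewise missed it (0.15 on the log2 scale, adjusted p = 0.0553 by edgeR).

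CLPP and CLPX form the CLPXP protease, in which CLPX unfolds the substrate and CLPP cuts it. Clpp was at 92.8 ± 5.86 CPM in controls (SD, n = 3) and at 89.2 ± 7.71, 86.2 ± 5.89 and 89.1 ± 1.86 CPM (SD, n = 4) after 1 h at 40 °C, 6 h at 40 °C and 1 h at 42.5 °C. Clpx was at 48.0 ± 0.816 CPM in controls (SD, n = 3) and, in the same order, at 47.8 ± 2.33, 52.7 ± 3.12 and 51.1 ± 2.52 CPM (SD, n = 4). Neither gene passed the test in any comparison. At 42.5 °C the differences were -0.07 on the log2 scale for Clpp and 0.08 for Clpx, and the intervals of the 6 members other than Hspd1 spanned 0.887-fold to 1.21-fold. The median over the 7 members was 0.09 on the log2 scale, against -0.002 over all genes tested.

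The ratio of Clpx counts to Clpp counts within a library does not depend on scaling, though its size also reflects transcript length. It was 0.519 ± 0.0367 at 37 °C (SD, n = 3), 0.539 ± 0.0454 after 1 h at 40 °C, 0.612 ± 0.0304 after 6 h at 40 °C and 0.574 ± 0.0293 at 42.5 °C (SD, n = 4 each). All 4 libraries of the 6 h treatment, from 0.587 to 0.647, were above those of the 1 h treatment, from 0.480 to 0.584, and above controls A to C, from 0.493 to 0.561. In two-sided exact permutation tests, 6 h at 40 °C differed from 1 h by 0.19 on the log2 scale (p = 0.0286) and from 37 °C by 0.24 (p = 0.0571), each the smallest p that these group sizes allow. After Benjamini-Hochberg adjustment over 6 such exact tests, p = 0.171 for both, so neither held. The other 4 comparisons of the ratio had unadjusted exact p values from 0.171 to 0.571.

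**Figure D2:**
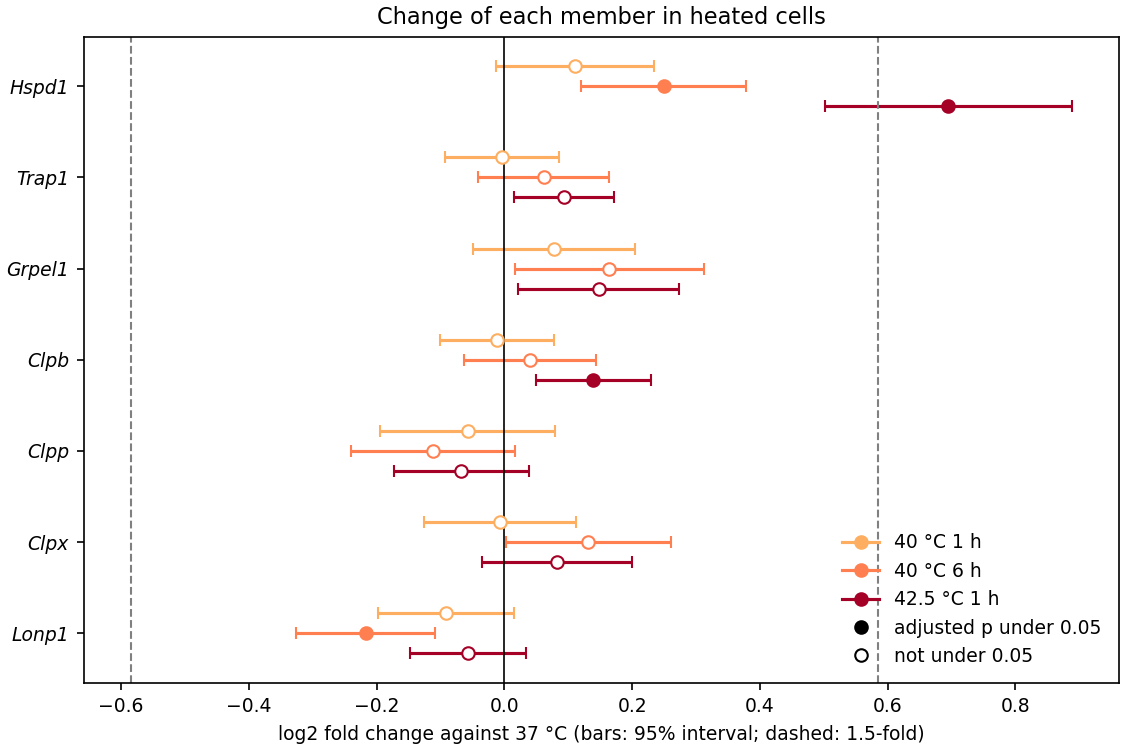
Log2 fold change of the 7 members against 37 °C after each of the 3 heat treatments, with 95% intervals as bars, filled symbols for an adjusted p under 0.05 and dashed lines at 1.5-fold. Hspd1 at 42.5 °C, at 0.70 against 37 °C, stands to the right of the other members, whose values lie between -0.22 and 0.16.

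The heated groups were also compared with each other, without the control libraries. Between 6 h and 1 h at 40 °C, 0 of 7 members passed the test or were DEGs and all had overlapping groups, compared with 18.5%, 1.28% and 21.3% of all genes tested. DESeq2 called 0. An unadjusted p under 0.05 was reached by at least 18.5% of all genes and by 3 members. These were Lonp1 (-0.12 on the log2 scale, adjusted p = 0.0985 by edgeR), Clpx (0.14, adjusted p = 0.107 by edgeR) and Hspd1 (0.14, adjusted p = 0.126 by edgeR). Hence the 2 changes seen against 37 °C at 6 h were not shown by this test to differ from the values at 1 h. When the replicate letter was added to the fit as a block, Lonp1 did pass (-0.12, adjusted p = 0.0402 by edgeR).

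At an equal duration of 1 h, 3 of 7 members were higher at 42.5 °C than at 40 °C by the test, compared with 16.4% of all genes tested. Their groups did not overlap either, against 16.3% of all genes with higher values at 42.5 °C, and 1 of them, Hspd1, was a DEG, against 1.75%. Hspd1 was higher by 0.59 on the log2 scale (SE 0.087, 95% interval 0.40 to 0.77, adjusted p = 9.8e-05 by edgeR), or 1.5-fold, which is at the threshold for a DEG. Without replicate B at 40 °C or without replicate B or D at 42.5 °C it fell under that fold, with a lowest value of 0.49, while its adjusted p passed in all 8 fits. Clpb was higher by 0.15 (SE 0.040, adjusted p = 0.00757 by edgeR) and kept its call in all 8 fits. Trap1 was higher by 0.10 (SE 0.036, adjusted p = 0.0437 by edgeR), and this call rested on single libraries, as it passed in 2 of 8 fits, those without replicate A or D at 40 °C. Without a filter on low counts it did not pass (adjusted p = 0.0930 by edgeR).

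Compared with 6 h at 40 °C, 1 h at 42.5 °C gave higher values for 2 of 7 members, against 22.5% of all genes tested. Hspd1 was higher by 0.44 on the log2 scale (SE 0.085, 95% interval 0.26 to 0.62, adjusted p = 0.000432 by edgeR), or 1.36-fold, and Lonp1 by 0.16 (SE 0.045, 95% interval 0.06 to 0.25, adjusted p = 0.00811 by edgeR). No member was a DEG by edgeR or DESeq2, against 8.25% of all genes. An unadjusted p under 0.05 was reached by 3 members and by at least 22.5% of all genes. Groups did not overlap for Hspd1, Lonp1 and Clpb, against 20.5% of all genes in that direction. Clpb did not pass (0.10 on the log2 scale, adjusted p = 0.0895 by edgeR).

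The spread of Hspd1 among the 4 cultures at 42.5 °C was wider than that of the other 6 members, at a coefficient of variation of 16.7%, against 0.815% (Trap1) to 5.94% (Grpel1). Replicate D was highest, followed by B, A and C. Hsph1, a cytosolic cochaperone of HSP70, had the same order, with 3768 CPM in D, 2771 CPM in B, 1837 CPM in A and 1727 CPM in C. The same order held for 6.65% of all 10470 genes tested, for 28.0% of the 296 DEGs that rose at 42.5 °C, for 6 of 11 cytosolic chaperones listed below and for 1 of 7 members, which is Hspd1 itself. What sets this order was not tested.

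Among 9454 genes with a symbol that passed the filter in the 15 libraries used, the 5 with the highest Pearson r to Hspd1 were Hspb8 (0.983), a small heat shock protein, Dusp16 (0.980), a phosphatase of MAP kinases, Ociad2 (0.979), Rybp (0.968), a Polycomb component, and Tsc22d1 (0.964), a transcription regulator. These values describe 15 libraries that share 4 treatments, and no p is attached to them. Their log2 fold changes at 42.5 °C against 37 °C were 1.32, 0.93, 0.82, 0.63 and 0.62. As the 5 genes were picked for their likeness to Hspd1 over libraries that include those at 42.5 °C, their rise and their order of libraries there largely follow from the choice. For the other members r with Hspd1 was 0.83 for Clpb, 0.64 for Trap1, 0.54 for Grpel1, 0.41 for Clpx, -0.11 for Lonp1 and -0.13 for Clpp.

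**Figure D3:**
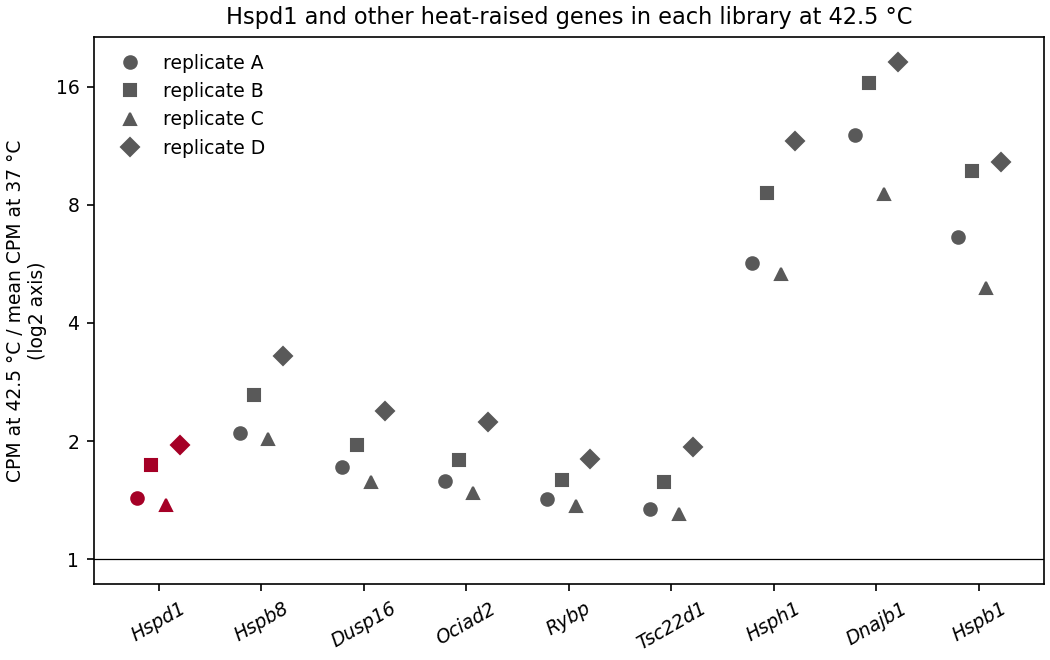
Level in each of the 4 cultures at 42.5 °C relative to the mean of controls A to C, on a log2 axis, for Hspd1, its 5 most similar genes and the cytosolic chaperones Hsph1, Dnajb1 and Hspb1. Each symbol shape is a culture, and for every gene the symbol of D is highest, followed by B, A and C, which for the 5 similar genes largely follows from how they were picked.

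The other genes of mitochondrial protein quality control were taken from lists, and most that passed the test changed less than 1.5-fold. Xpnpep3, Immp2l and Dnajc30, given below, changed more in size than Hspd1 did at 42.5 °C (0.70 on the log2 scale). Of 18 other proteases and quality control factors, 0 passed after 1 h at 40 °C by edgeR or DESeq2, with 2 at an unadjusted p under 0.05, and 5 passed after 6 h at 40 °C, all lower, against 29.4% of all genes tested in either direction. Spg7 (-0.32 on the log2 scale), a subunit of the inner membrane m-AAA protease, Parl (-0.30), the rhomboid protease, and Pmpca (-0.30), a subunit of the processing peptidase that removes import signals, fell the most. At 42.5 °C, 8 of the 18 passed, 5 higher and 3 lower, against 43.1% of all genes, so that this count was like that of genes in general, and DESeq2 called 5. Xpnpep3, an aminopeptidase that trims imported proteins, rose by 1.05 (adjusted p = 3.35e-06 by edgeR) and Immp2l, a subunit of the inner membrane peptidase, by 0.76 (adjusted p = 0.00563 by edgeR), the 2 DEGs of the list. Immp1l, the partner of Immp2l, rose by 0.47, while Oma1 (-0.27), a stress-activated protease, Htra2 (-0.16) and Pmpca (-0.12) fell. The list's median was -0.004, -0.08 and 0.008 on the log2 scale after 1 h at 40 °C, 6 h at 40 °C and 1 h at 42.5 °C. With control D included, 3 of the 18 passed at 6 h and 3 at 42.5 °C, where Immp1l, Htra2 and Pmpca no longer did. The calls of Htra2 and Pmpca at 42.5 °C also passed in only 2 of 7 fits each that left out 1 library.

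HSP70 partners and J proteins of mitochondria were listed by name for 7 of 9 genes, without Dnajc19 and Pam16. None passed after 1 h at 40 °C by edgeR or DESeq2, with 1 at an unadjusted p under 0.05, 3 passed after 6 h and 2 at 42.5 °C, against 29.4% and 43.1% of all genes. Dnaja3, the main J protein of the matrix, rose by 0.20 and 0.13 on the log2 scale at 6 h and at 42.5 °C, and Dnajc11 fell by 0.27 and 0.29. Dnajc30 fell by 1.10 at 6 h (adjusted p = 0.00455 by edgeR), from 1.89 to 0.879 CPM, with as few as 9 counts in a library. The medians were -0.02, -0.17 and -0.10 on the log2 scale, and with control D included the calls of Dnaja3 were lost. Leaving out 1 library, Dnaja3 passed in 6 of 7 fits at 6 h and in 3 of 7 at 42.5 °C.

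Import genes were found for 18 of 26 names, without Tomm20, Tomm70, Timm23, Timm8a, Timm8b, Timm10b, Timm13 and Chchd4. None passed after 1 h at 40 °C by edgeR or DESeq2, with 2 at an unadjusted p under 0.05, and 5 passed at 6 h, of which 4 fell, against 29.4% of all genes. Gfer, the oxidase that recharges the import of intermembrane space proteins, rose by 0.35 on the log2 scale at 6 h, and Tomm40 (-0.32), the channel of the outer membrane, Timm10 (-0.24) and Samm50 (-0.23) fell. At 42.5 °C 5 passed, 4 higher and 1 lower, against 43.1% of all genes. Timm9 rose by 0.66 as the DEG of the list (adjusted p = 0.000634 by edgeR), Tomm6 by 0.33 and Timm17a by 0.17, while Timm10, which forms a chaperone complex with TIMM9, fell by 0.35. The medians were 0.03, -0.06 and 0.04 on the log2 scale. With control D included, 2 of the 18 passed at 6 h and 1 at 42.5 °C, and the calls of Gfer, Timm9, Tomm6, Timm17a and, at 6 h, Timm10 were lost. Leaving out 1 library, Timm10 at 6 h passed in 6 of 7 fits and Timm17a in 5 of 7.

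Regulators tied to the mitochondrial unfolded protein response were found for 8 of 9 names, without Ubl5. Cebpb, a transcription factor of the C/EBP family, was a DEG after 1 h at 40 °C, with a rise of 0.74 on the log2 scale (adjusted p = 0.0393 by edgeR), and at 42.5 °C, with a rise of 1.40 (adjusted p = 2.28e-05 by edgeR). Atf4 fell by 0.75 at 6 h as a DEG, Ddit3 (CHOP) rose by 0.47 at 6 h and Hsf1 fell by 0.14 at 42.5 °C, and no other gene of the list passed in a comparison with 37 °C. Cebpb was higher by 0.78 at 6 h as well, without passing. Likewise, Ddit3 was higher by 0.63 after 1 h at 40 °C and by 0.44 at 42.5 °C without passing. The medians were 0.11, 0.08 and 0.03 on the log2 scale. With control D included, the call of Cebpb at 1 h was lost (0.47 on the log2 scale, adjusted p = 0.807 by edgeR), as were those of Ddit3 and Hsf1. The call of Cebpb at 1 h passed in only 2 of 7 fits that left out 1 library, those without replicate A or B at 40 °C (highest adjusted p = 0.205 by edgeR), and did not pass in 1 fit over all groups (adjusted p = 0.305). Ddit3 passed in 5 of 7 such fits and Hsf1 in 3 of 7.

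The list of cytosolic counterparts holds HSP90, the CCT chaperonin, HSP70 cochaperones and the small heat shock protein Hspb1. Its genes were found for 11 of 15 names, without Hspa8, Hsp90aa1, Cct3 and Cct6a. Of the 11 found, 5, 6 and 10 passed with a rise after 1 h at 40 °C, 6 h at 40 °C and 1 h at 42.5 °C, with 3, 4 and 4 DEGs. None passed with a fall. Among all genes tested, 1.64%, 29.4% and 43.1% passed in either direction, and 0.334%, 3.11% and 7.51% were DEGs. At 42.5 °C Dnajb1 rose by 3.79, Hspb1 by 2.98, Hsph1 by 2.96 and Dnaja1 by 0.94 on the log2 scale, beside 0.70 for Hspd1. The genes found of CCT, the cytosolic chaperonin, were higher by only 0.09 (Cct5) to 0.27 (Cct2), less than Hspd1. Hsp90ab1 was higher by 0.40, beside 0.09 for Trap1. The medians were 0.09, 0.18 and 0.27 on the log2 scale, and with control D included 0 passed at 1 h by edgeR, with 5 at an unadjusted p under 0.05, 5 passed at 6 h and 5 at 42.5 °C.

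**Figure D4:**
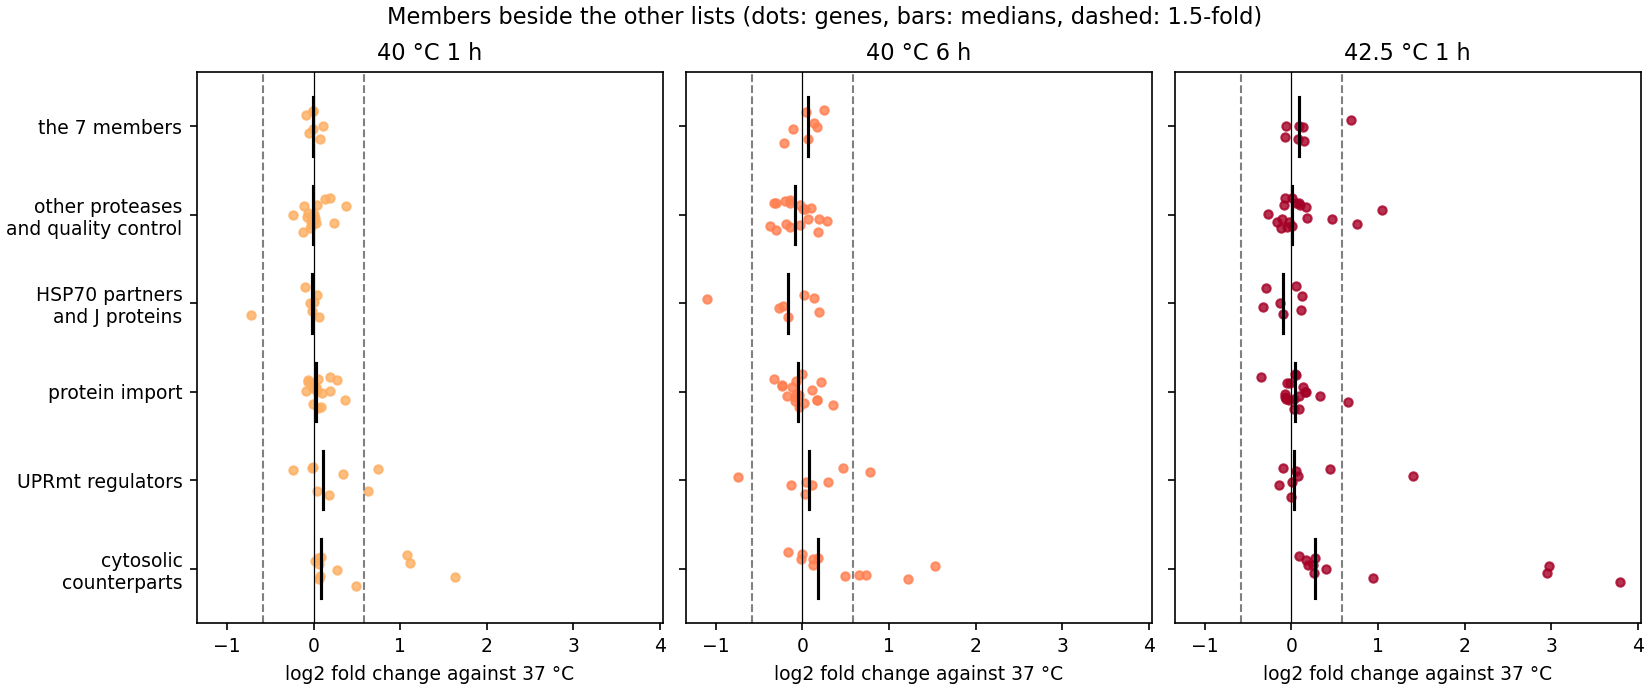
Log2 fold change against 37 °C of the 7 members and of the genes in the 5 lists (other proteases, HSP70 partners, import, regulators of the mitochondrial unfolded protein response or UPRmt, and cytosolic counterparts), with a point per gene, a bar at each median, dashed lines at 1.5-fold and a panel per treatment. At 42.5 °C the cytosolic list reaches 3.79, while its median of 0.27 and the members' median of 0.09 lie close to 0.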

How the data were processed

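RNA of 16 CHO cultures was sequenced from TruSeq libraries as paired reads. The authors mapped the reads to build CHOK1GS_HDv1 with CLC Genomics Workbench and deposited whole-number counts per gene without normalization; bcl2fastq is named in the submitters' processing notes, and versions, strandedness and annotation release are not given in the sources used here. Of the 20824 genes, 4423 have an identifier and no symbol.

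Groups were taken from the labels. Each comparison used edgeR 4.0.16, run in R 4.3.3 (filterByExpr, TMM, quasi-likelihood test, two-sided, Benjamini-Hochberg) on the libraries of the 2 groups, without 37 °C replicate D, which the study's comparisons leave out. On simulated counts with 200 genes changed 2-fold, the test recovered known changes. Smaller changes, such as those of the members, were not simulated. Alternatives were DESeq2 1.42.0 (test and size factors), other filters (none, or at least 10 counts in every library), 1 fit over all groups, a replicate block, all 4 controls and leaving out each library. The p values measure the spread between these cultures.

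The members and lists were chosen with earlier results of these data known. Named genes are all members, from each list up to 3 rises and 3 falls past the test and all DEGs in each comparison with 37 °C, and the 5 genes most like Hspd1 (Pearson r of log2 CPM, prior count 2). Hsp90ab1 and the CCT genes are given in addition, beside Trap1 and Hspd1. Ratios to Hspe1 and Grpel2 were not computed, as those genes were not listed by name, and no sequences were used. The 7 members were matched by symbol to the RefSeq table of CriGri-PICRH-1.0 for overlapping genes.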

Additional observations from a re-analysis of the deposited data

Results flagged for a closer look

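In 2 of 32 groups of 4 libraries examined, a single library stood far from the others by Dixon's ratio of its gap to the group's range, and chance gives about 1 in 20. Clpb at 37 °C had a ratio of 0.867, since replicate D was at 115 CPM and the other controls were at 96.8 to 99.2 CPM. Lonp1 at 42.5 °C had a ratio of 0.930, since replicate D was at 244 CPM and the others were at 258 to 259 CPM.

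In 5 cases the responses of a member to 2 heat treatments differed by edgeR's direct test between the treatments. Hspd1 was higher at 42.5 °C than after 1 h at 40 °C by 0.59 on the log2 scale, Clpb by 0.15 and Trap1 by 0.10. Against 6 h at 40 °C, Hspd1 was higher at 42.5 °C by 0.44 and Lonp1 by 0.16.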

How the results depend on the processing

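Of 588 values of single members under the alternatives, 547 kept their direction and their side of the threshold, 16 newly passed, 11 no longer passed and 14 changed sign. Shares of all genes called were not counted under the alternatives. Whether genes in general moved with the members was therefore not tested. With all 4 controls, 1 member passed at 6 h (Lonp1) and 1 at 42.5 °C (Hspd1), while the Clpx to Clpp difference at 6 h became 0.30 (exact permutation p = 0.0286). DESeq2 size factors gave 4 members past the test at 42.5 °C, adding Trap1 (adjusted p = 0.0419) and Grpel1 (adjusted p = 0.0491). Without a filter on low counts, 0 members were DEGs between 42.5 °C and 1 h at 40 °C. The cause was not tested.

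The sample titles do not state that libraries of the same letter are paired, and what they share was not tested. The mean residual correlation over 10627 genes was from 0.01 to 0.13 for equal letters and from -0.04 to -0.005 for different letters. It was higher for equal letters in every comparison. The contrast was widest, and every library correlated best with its own letter, only between 1 h at 40 °C and 37 °C (0.13 against -0.04, 6 of 6). With the replicate block, 1 member passed in that comparison (Hspd1, 0.10, adjusted p = 0.0308) and 1 between 6 h and 1 h at 40 °C (Lonp1). Against 37 °C, the block also added Grpel1 at 6 h (0.18, adjusted p = 0.0480) and Trap1 at 42.5 °C (0.09, adjusted p = 0.0431), for 3 members past the test in each. With the block 0 members were DEGs between 42.5 °C and 1 h at 40 °C. The Clpx to Clpp difference between 6 h and 1 h stayed at 0.19 (p = 0.125 by exact sign flips within letters). That is the smallest p possible with 4 pairs.

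Leaving out 1 library, from 1 to 3 members passed at 42.5 °C against 37 °C and from 0 to 1 between 6 h and 1 h at 40 °C (1 without 6 h replicate A). From 0 to 1 were DEGs between 42.5 °C and 1 h at 40 °C, and the Clpx to Clpp difference between 6 h and 1 h was from 0.13 to 0.23 (exact permutation p = 0.0571, the smallest possible there). The changes of sign were all of values that did not pass. With all 4 controls, Grpel1 after 1 h at 40 °C was at -0.027 and Clpb at 6 h at -0.021. Leaving out 1 library, Trap1 ranged from -0.032 to 0.020 and Clpx from -0.038 to 0.016 at 1 h against 37 °C, Clpp from -0.059 to 0.029 between 42.5 °C and 1 h at 40 °C, and Grpel1 from -0.073 to 0.034 between 42.5 °C and 6 h at 40 °C.

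Precision is limited by the 3 or 4 cultures a group, with coefficients of biological variation from 0.0487 to 0.0561, and by counting error, with as few as 494 counts for Clpx in a library.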
